A study of Mus musculus with 3 samples.

Results

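The 10 genes described here are the Notch receptors Notch1, Notch3 and Notch4, the ligands Dll4, Jag1 and Jag2, and the target genes Hey1, Heyl, Hes1 and Hes5. They were taken by symbol from the gene list of the matrices, which names 32285 genes, and all 10 were found, each under a single Ensembl identifier. Their transcripts were counted in 3 droplet single-cell RNA libraries of mouse retina. The young library came from animals of 3 months, the adult one from animals of 12 months and the old one from animals of 23 months. All animals were C57BL/6JRj mice and none was treated, and at each age the retinas of a pair of animals were pooled before cells carrying CD31, an endothelial surface protein, were enriched on magnetic beads. Each age is therefore 1 library, so no difference between ages has a replicate check, no test was run, and every interval given is a 95% interval of counting error only. Age, the animals pooled and the preparation cannot be told apart.

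Notch is a receptor that is read between touching cells. A ligand of the Delta or Jagged family on a neighbouring cell pulls on the receptor, ADAM10 and gamma-secretase cut it in succession, and the released intracellular domain enters the nucleus, where it turns the DNA-binding protein RBPJ from a repressor into an activator of genes of the Hes and Hey families, themselves repressors of transcription. In blood vessels DLL4 and NOTCH signalling set arterial identity and limit sprouting, NOTCH3 is the receptor of pericytes and smooth muscle, and in retina the Hes proteins are known for keeping progenitors undifferentiated and for marking Müller glia, the radial glia that span the tissue.

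The young, adult and old libraries held 2491, 3243 and 2751 barcodes with 16577026, 19977238 and 17021820 UMIs, the molecular tags that count transcripts. After limits on genes and mitochondrial content and removal of doublets, 5360 cells were kept, with medians of 6355.5, 5964 and 6296 UMIs. No barcode was shared between the young library and either other one, and 2 were shared between the adult and old libraries. Clusters were built with the Notch genes left out and named from marker genes, and 4736 cells fell into 11 classes that could be compared over the 3 ages. The material labelled as enriched for CD31 was mixed: endothelial cells numbered 447, 433 and 409 in the young, adult and old library, Müller glia 182, 215 and 206, rods 166, 322 and 238, bipolar cells 201, 207 and 167, pericytes 169, 128 and 103, cones 70, 103 and 71, and smooth muscle cells 38, 38 and 37. Endothelial cells were divided into an arterial cluster (80, 80 and 99 cells), a venous cluster (22, 23 and 29) and the others (345, 330 and 281). Droplets that carried both endothelial and pericyte markers formed 2 further classes, a mixed arterial one with 67, 60 and 39 droplets and a mixed one with 245, 189 and 186. The 624 cells outside these classes were not compared, among them 216 endothelial cells of low UMI count. Levels are given as CPM, a gene's share of all UMIs summed over the cells of a class in 1 library, on the customary scale.

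Among the receptors, Notch3 was mural. Pericytes had 770 CPM (706 to 838) at 3 months, 844 (769 to 925) at 12 months and 860 (781 to 945) at 23 months, and smooth muscle had 660, 575 and 473 CPM in the same order. In endothelial subclasses it did not exceed 21.1 CPM in any library, and in Müller glia and neurons it stayed at or below 6.25 CPM. Pericytes, smooth muscle, the mixed arterial droplets (388 to 414 CPM) and the mixed droplets (268 to 335 CPM) followed each other in this order, each with a range over the 3 libraries that lay clear of the next. Notch3 (chromosome 17, 32120820 to 32166852, minus strand, GRCm38) was found in 88.2, 86.7 and 81.6% of pericytes, where the median cell held 4011, 3972 and 4674 UMIs, against 5.0, 11.3 and 3.03% of arterial cells, where it held 6898, 6578.5 and 9149.

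Notch1 (chromosome 2, 26457903 to 26516663, minus strand) was the broadest receptor and reached all vascular classes and the glia. It stood at 411 (364 to 461), 355 (307 to 409) and 365 (314 to 422) CPM in pericytes, at 324 (283 to 370), 290 (250 to 334) and 289 (256 to 325) in arterial cells, and at 176, 196 and 165 in other endothelial cells. Müller glia had 165, 143 and 151 CPM. Endothelial markers in them summed to 8.15, 7.71 and 8.13% of their own level, and their part in this value was not tested. Other endothelial cells, smooth muscle, Müller glia and venous cells followed each other in the order for Notch1 with ranges that overlapped. Rods, cones and bipolar cells were all at or below 6.5 CPM. Notch4 (chromosome 17, 34564268 to 34588503, plus strand), a receptor known mainly from endothelium, was led by arterial cells at 107 (83.9 to 135), 93.6 (71.7 to 120) and 111 (90.5 to 134) CPM. It was at 52.2, 46.1 and 44.6 in other endothelial cells, at 24.4, 11.0 and 27.9 in pericytes and at or below 6.5 in smooth muscle.

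**Figure D1:**
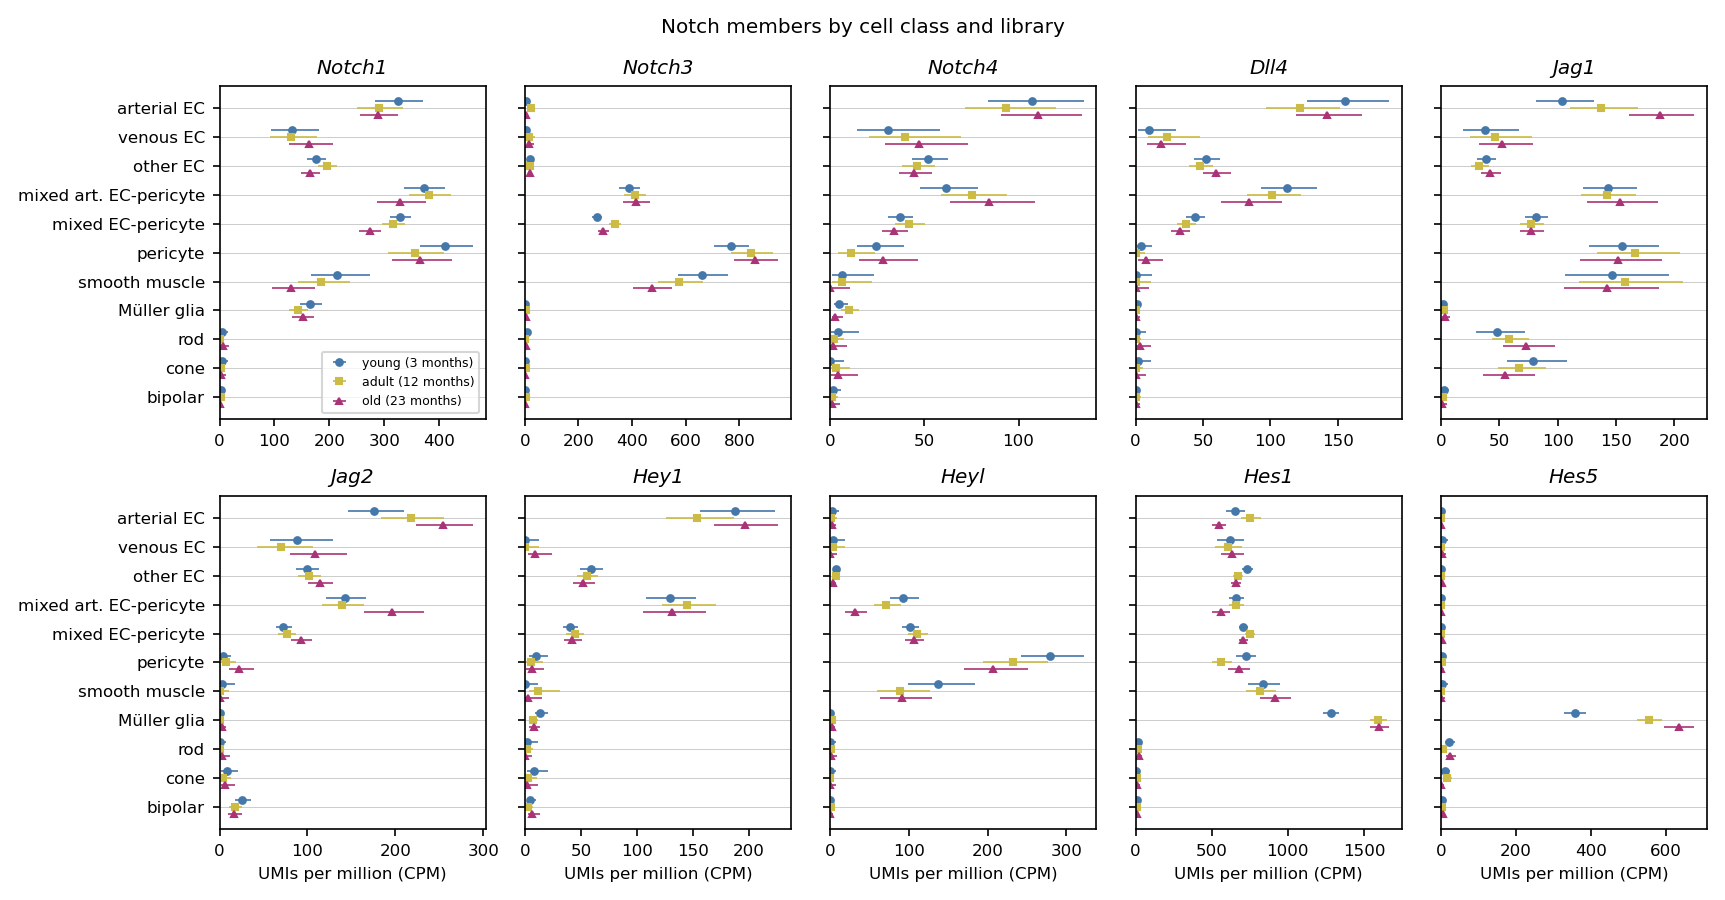
Level of each of the 10 genes (horizontal axes, CPM, a separate scale for each gene) in 11 cell classes (rows; EC, endothelial cells) of the young (circles), adult (squares) and old (triangles) library. Bars are 95% counting intervals. By the mean of the 3 libraries Notch4, Dll4, Jag2 and Hey1 are highest in arterial cells, Notch1, Notch3, Jag1 and Heyl in pericytes, and Hes1 and Hes5 in Müller glia. For Jag1 the old arterial value (188 CPM) lies above all pericyte values, and the ranges of both classes overlap.

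Of the ligands, Dll4 and Jag2 were endothelial. Dll4 (chromosome 2, 119325784 to 119335962, plus strand), the ligand of arteries and sprouting tips, had 155 (127 to 188), 122 (97.1 to 152) and 142 (119 to 168) CPM in arterial cells, 52.2, 48.2 and 59.6 in other endothelial cells and 10.2, 23.2 and 18.9 in venous cells. These 3 subclasses did not overlap. Smooth muscle held no Dll4 UMI in any library, which allows up to 9.75, 9.12 and 8.35 CPM at 3 counts, and pericytes, glia and neurons stayed at or below 7.98 CPM. Jag2 (chromosome 12, 112907819 to 112929776, minus strand) had 176 (146 to 210), 217 (183 to 256) and 254 (223 to 288) CPM in arterial and 99.6, 102 and 114 in other endothelial cells. Outside the vessel its highest level was in bipolar cells, with 25.9 (17.9 to 36.2), 17.1 (11 to 25.4) and 16.4 (9.7 to 25.9) CPM from 34, 24 and 18 UMIs. Müller glia gave 0, 0 and 5 Jag2 UMIs.

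Jag1 (chromosome 2, 137081456 to 137116644, minus strand) is the ligand that endothelium is known to present to mural cells. It was carried by mural cells, all endothelial subclasses and photoreceptors. Its level was 155 (127 to 187), 167 (134 to 205) and 152 (119 to 190) CPM in pericytes, 146, 158 and 142 in smooth muscle and 104 to 188 in arterial cells, and these ranges overlapped. In photoreceptors it was lower than in pericytes. Cones had 79.3 (56.4 to 108), 67.3 (49.2 to 89.7) and 55.3 (36.4 to 80.4) CPM and rods 47.9 (30.4 to 71.9), 58.2 (44.2 to 75.2) and 73.2 (53.4 to 97.9). Venous cells had 37.4, 46.4 and 52.1 CPM, a range that overlapped that of rods, and other endothelial cells 38.7, 32.9 and 42.4. Bipolar cells, which came from the same libraries, had at most 2.29 CPM and Müller glia at most 3.24. A Jag1 UMI was found in 40.0, 35.9 and 33.8% of cones (median depth 7267.5, 6642 and 7315 UMIs) against 1.0, 0.966 and 0.599% of bipolar cells (6130, 6581 and 6256 UMIs). With each cell thinned to 2000 UMIs the shares were 17.4, 13.5 and 10.4% of cones, 9.52, 10.6 and 12.6% of rods, and 1.02, 0.495 and 0% of bipolar cells. The 9 pericyte markers summed to 1.77 to 2.18% of their pericyte level in cones and to 4.14 to 4.96% in rods, and endothelial markers to under 1% of their own level in both. Jag1, as the mean of the 3 libraries, was at 42.6% of its pericyte level in cones and 37.9% in rods, and the part of RNA from other cells in these values was not tested.

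The targets differed in which classes carried them. Hey1 (chromosome 3, 8663359 to 8667256, minus strand), an endothelial effector of Notch, was at 188 (157 to 223), 154 (126 to 187) and 196 (169 to 226) CPM in arterial cells and at 58.7, 55.2 and 52.1 in other endothelial cells. In venous cells it gave 0, 0 and 4 UMIs. Arterial cells were 18.4-fold and 15.5-fold above a venous floor of 3 counts in the young and adult library. The counting intervals of the observed ratios begin at 14.8 and 12.4 there. In the old library arterial cells were 20.7-fold (7.95 to 76.8) above the venous level. Heyl (chromosome 4, 123233556 to 123249875, plus strand), the mural relative of Hey1, was at 280 (242 to 322), 233 (194 to 277) and 208 (170 to 251) CPM in pericytes, at 137, 88.2 and 91.9 in smooth muscle and at or below 7.83 in endothelial cells. Cones gave no Heyl UMI in any library, with floors of 6.1, 4.39 and 6.14 CPM. Hey1 and Heyl thus lay on the endothelial and the mural side, and the mixed classes alone held both above 30 CPM in every library.

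Hes1 (chromosome 16, 30064384 to 30067796, plus strand), a target of Notch and of other signals, was present in every vascular class at 548 to 916 CPM and reached 1282 (1228 to 1337), 1594 (1539 to 1652) and 1600 (1537 to 1664) CPM in Müller glia. Below smooth muscle, its vascular classes formed an order in which every neighbour overlapped the next. The 3 neuron classes lay clear below them, at 4.07 to 24.4 CPM. Hes5 (chromosome 4, 154960923 to 154962371, plus strand), a direct target of the Notch and RBPJ complex, was almost wholly glial: 95, 98 and 97% of its UMIs in the compared classes of the young, adult and old library lay in Müller glia. Arterial cells gave 1, 0 and 1 UMI, other endothelial cells 2, 0 and 7, and rods 10, 6 and 15, or 20.8, 6.02 and 24.4 CPM. Müller markers in rods summed to 2.19, 1.35 and 3.66% of their own level, lowest in the adult library as Hes5 was, and their part in the rod value was not tested.

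Because Hes5 separated 1 class from all others, the sequence before its start site is given. It comprises the 250 bases before the annotated start (RefSeq, GRCm38.p6, chr4:154960673-154960922, plus strand), and the capitals mark GTGGGAA, a core of the RBPJ motif, or its reverse complement TTCCCAC.
Hes5: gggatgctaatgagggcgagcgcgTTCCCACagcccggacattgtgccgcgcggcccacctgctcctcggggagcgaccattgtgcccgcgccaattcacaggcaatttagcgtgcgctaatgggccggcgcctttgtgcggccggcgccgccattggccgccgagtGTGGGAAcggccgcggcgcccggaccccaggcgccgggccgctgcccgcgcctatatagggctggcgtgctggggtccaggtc

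The first match begins 226 bases before the start on the opposite strand (154960697 to 154960703) and the second 83 bases before it on the same strand (154960840 to 154960846). Searched on both strands, GTGGGAA occurs in 1779 of 32851 mouse promoters of this length (5.42%), and at least 2 matches occur in 53 (0.161%). Of the 10 genes, 7 had an entry in the promoter table and Hey1, Heyl and Hes1 did not, and 1 of the 7, Hes5, held the motif. The E-box CACGTG, which reads the same on both strands and which Hes and Hey proteins can bind, occurs in 6.02% of promoters and in 0 of the 7. A match is a run of letters, and binding was not measured here.

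Arterial cells were then set against other endothelial cells within each library. The contrast rests on clusters built without the Notch genes, but from cells whose other genes may vary with them, so it is a description. Dll4 was 2.98-fold (2.27 to 3.9), 2.54-fold (1.89 to 3.4) and 2.38-fold (1.86 to 3.04) higher in arterial cells of the young, adult and old library, and Hey1 3.2-fold (2.49 to 4.1), 2.79-fold (2.14 to 3.64) and 3.76-fold (2.97 to 4.77). Jag1 was 2.69-fold (1.94 to 3.72), 4.17-fold (3.05 to 5.7) and 4.42-fold (3.43 to 5.73) higher. All of these intervals lay above 1.5. Notch4 differed 2.05, 2.03 and 2.48-fold, Jag2 1.77, 2.13 and 2.22-fold and Notch1 1.84, 1.48 and 1.75-fold. Hes1 did not follow them: its ratios were 0.892 (0.802 to 0.991), 1.12 (1.01 to 1.24) and 0.833 (0.753 to 0.921), on either side of 1. Notch3, low in both subclasses, was at 0.314 (0.0818 to 0.863), 1.03 (0.524 to 1.89) and 0.225 (0.0585 to 0.619), on 4, 14 and 4 arterial UMIs.

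Of the 8 genes with at least 20 UMIs over both subclasses in every library, 5 were more than 1.5-fold higher in arterial cells in all 3 libraries, where 3.29% of 8717 genes were, and 0 were more than 1.5-fold lower, where 2.23% were. Notch1 missed that limit in the adult library alone. One of the other endothelial subclusters carried pericyte markers, and without it the count was 6, as Notch1 then stood at 1.91, 1.5006 and 1.74-fold. The Notch3 ratios without it were 0.769, 3.18 and 0.546. Against venous cells 6 of 7 genes were more than 1.5-fold higher in arterial cells in all 3 libraries (4.91% of 5720 genes), with Hes1 the exception at 1.06, 1.25 and 0.868-fold. Venous cells were more than 1.5-fold below other endothelial cells for 2 of 8 genes (1.83% of 8350 genes), Dll4 and Hey1. Nothing is read from these venous counts: with 3, 7 and 8 venous UMIs of Dll4 and 0, 0 and 4 of Hey1, both genes reached the minimum of 20 only through the class where they were high, and against arterial cells so did Notch4 and Jag1 in the young and adult library.

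**Figure D2:**
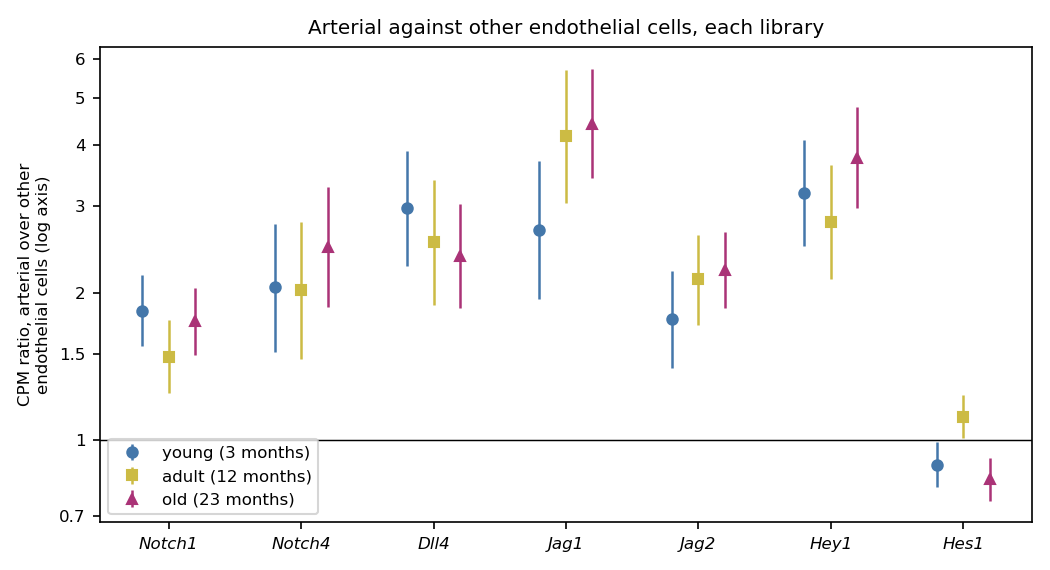
Ratio of CPM in arterial over other endothelial cells (vertical log axis, line at 1) for 7 genes in the young (circles), adult (squares) and old (triangles) library, with 95% counting intervals. Jag1 and Hey1 reach the highest ratios, up to 4.42 and 3.76, and Hes1 lies on both sides of 1. Notch3 is not plotted.

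Within mural cells, Notch1 and Heyl were lower in smooth muscle than in pericytes. Smooth muscle over pericytes was 0.523, 0.522 and 0.358 for Notch1 and 0.488, 0.379 and 0.443 for Heyl, 2 of 5 measured genes past 1.5-fold lower in all 3 libraries, where 12.9% of 5259 genes were. Notch3 was at 0.858 (0.726 to 1.01), 0.681 (0.572 to 0.808) and 0.550 (0.458 to 0.659). Jag1 was at 0.943, 0.949 and 0.936, with intervals from 0.644 to 1.35, and Hes1 leaned to smooth muscle at 1.16, 1.45 and 1.35. Pericyte markers in the smooth muscle cluster summed to 25.9, 26.3 and 13.6% of their pericyte level, lowest in the old library, and their part in these ratios was not tested. Each ratio given here for the 5 genes lay above that share in its library.

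Across ages, Hes5 rose in Müller glia. Its level was 356 CPM (328 to 386, 594 UMIs) at 3 months, 556 (523 to 590, 1083 UMIs) at 12 months and 634 (595 to 675, 978 UMIs) at 23 months. No 2 of these intervals overlap. The ratio was 1.56 (1.41 to 1.73) from young to adult, 1.14 (1.05 to 1.25) from adult to old and 1.78 (1.60 to 1.97) from young to old. The share of Müller glia with a Hes5 UMI did not follow that order, at 52.7, 67.9 and 56.3%, or 32.6, 46.7 and 36.7% after thinning. The UMIs per positive cell did, at 6.19, 7.42 and 8.43, with median depths of 9171, 9449 and 6912 UMIs a cell. For background, 0.580, 0 and 2.49% of other endothelial cells held a Hes5 UMI, at median depths of 5330, 5652 and 6693 UMIs.

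Hes1 in Müller glia rose as well, from 1282 CPM at 3 months to 1594 at 12 months and 1600 at 23 months. The ratio was 1.24 (1.18 to 1.32) for adult over young and 1.25 (1.18 to 1.32) for old over young. The share of cells with a UMI was 88.5, 91.2 and 83.0%. Thinning each cell to 2000 UMIs left an old over young ratio of 1.01, and the mean over cells of CPM a ratio of 1.15. Thinning also left out the cells under 2000 UMIs, 10 of 182 young and 40 of 206 old ones, and which of its steps moved the ratio was not tested. Notch1 in these cells stood at 165 (146 to 186), 143 (127 to 161) and 151 (132 to 172) CPM, an old over young ratio of 0.915 (0.765 to 1.09). The 9 Müller markers summed to 22130, 22794 and 23259 CPM, and a list of 12 dissociation response genes had an old over young ratio of 1.004 (0.983 to 1.03).

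**Figure D3:**
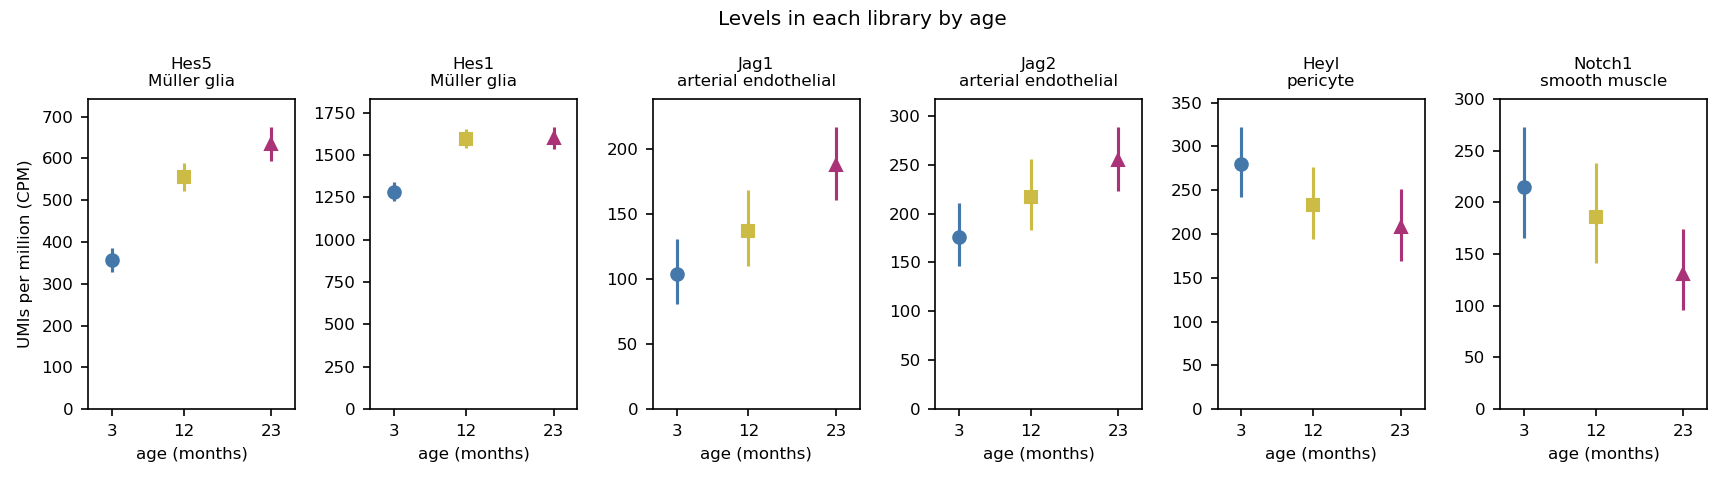
CPM (vertical axes from 0, a separate scale for each panel) against age in months for 6 pairs of gene and class, 1 library per point, with 95% counting intervals. Hes5 in Müller glia and Jag1 and Jag2 in arterial cells are highest in the old library, and Heyl in pericytes and Notch1 in smooth muscle are lowest there.

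The Müller class was made of 2 clusters that behaved differently. The larger one (148, 179 and 159 cells, median 10444, 10011 and 8908 UMIs) was led by Spc25, Rlbp1 and Crym, and also by Hes5 itself, although Hes5 had no part in the clustering. The smaller one (34, 36 and 47 cells, median 4362, 4562 and 2708 UMIs) was led by Utp14b, Adam23 and Gm3764. Hes5 was at 379, 590 and 694 CPM in the larger cluster, an old over young ratio of 1.83 (1.65 to 2.04), and at 172, 235 and 174 CPM in the smaller, a ratio of 1.01 (0.596 to 1.72). Hes1 rose in the larger cluster, from 1294 to 1665 and 1702 CPM, and fell in the smaller, from 1180 to 931 and 820, with ratios of 1.31 (1.24 to 1.40) and 0.694 (0.559 to 0.861). The rise of both genes was thus seen in the larger cluster, and the difference between clusters was not tested. Notch1 was lower in the larger cluster, at 149, 133 and 134 CPM against 299, 241 and 281. Notch2, a receptor outside the 10 and the leading other receptor in Müller glia, was at 60.6, 77.2 and 82.8 CPM in the larger cluster, a ratio of 1.37 (1.03 to 1.82), and at 127, 139 and 140 CPM in the smaller.

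**Figure D4:**
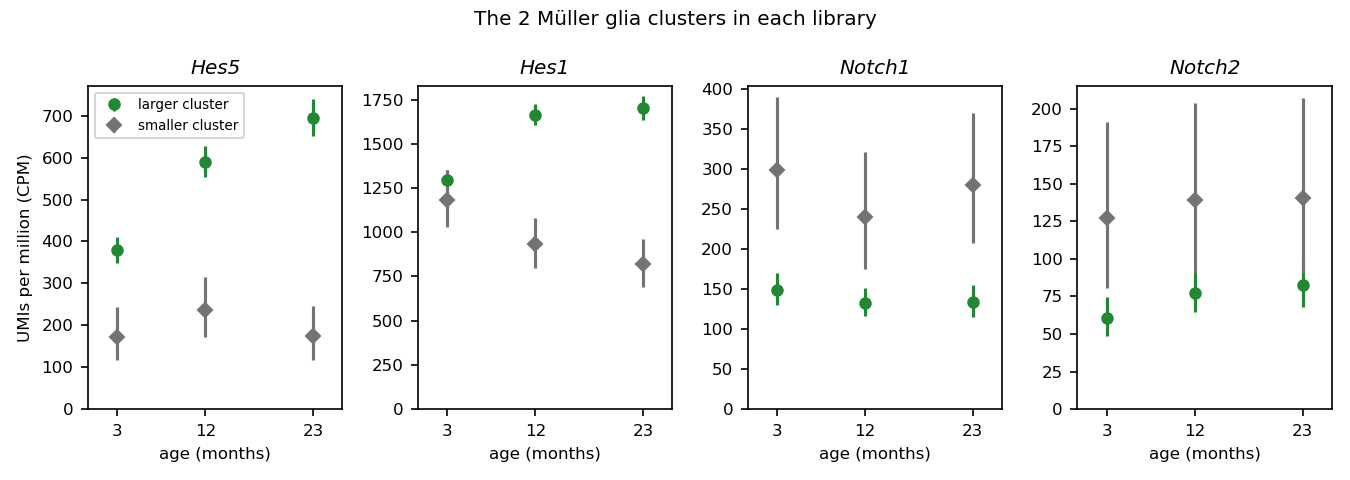
CPM of Hes5, Hes1, Notch1 and Notch2 (vertical axes from 0) against age in months in the larger (circles) and the smaller (diamonds) Müller glia cluster, 1 library per point, with 95% counting intervals. Hes5 and Hes1 climb with age in the larger cluster and do not in the smaller, while both receptors lie higher in the smaller.

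In arterial cells Jag1 and Jag2, the ligands of the Jagged family, were higher in the old than in the young library. Jag1 went from 104 CPM (81.3 to 131, 71 UMIs) at 3 months to 137 (111 to 169, 91 UMIs) at 12 months and 188 (161 to 217, 180 UMIs) at 23 months, and Jag2 from 176 to 217 and 254 CPM on 120, 144 and 244 UMIs. The young and old intervals do not overlap for either gene, and the adult ones overlap both neighbours. Old over young was 1.80 (1.36 to 2.41) for Jag1 and 1.45 (1.16 to 1.81) for Jag2, which thus did not pass 1.5-fold. Old over adult was 1.37 (1.06 to 1.78) for Jag1 and 1.17 (0.949 to 1.45) for Jag2, the latter an interval that spans 1. Dll4, the Delta ligand of the same cells, had an old over young ratio of 0.912 (0.703 to 1.19), Notch4 of 1.03 (0.759 to 1.41) and Hey1 of 1.04 (0.83 to 1.32). Hes1 was at 655 (596 to 719), 754 (690 to 824) and 548 (503 to 597) CPM, a fall with an old over young ratio of 0.837 (0.736 to 0.951).

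Other endothelial cells did not repeat the rise of Jag1, which stood at 38.7, 32.9 and 42.4 CPM, a ratio of 1.1 (0.813 to 1.48), and the difference between the subclasses was not tested. Over all endothelial cells Jag1 was 1.57-fold (1.29 to 1.90) and Jag2 1.32-fold (1.15 to 1.5) higher in the old library, and arterial cells made up 17.9, 18.5 and 24.2% of endothelial cells, so the mix of subclasses moved with these values. Jag2 was at 1.15 (0.958 to 1.38) in other endothelial and 1.23 (0.746 to 2.08) in venous cells, and was higher in both mixed classes, 1.38-fold (1.08 to 1.75) in the arterial and 1.28-fold (1.07 to 1.53) in the other. Jag1 did not pass there, with ratios of 1.07 (0.825 to 1.38) and 0.953 (0.794 to 1.14). Dll4 was at 0.750 (0.537 to 1.04) in the mixed arterial and 0.748 (0.570 to 0.977) in the other mixed droplets. Cells with a Jag1 UMI made up 48.8, 51.2 and 65.7% of arterial cells, and 19.0, 26.3 and 28.9% after thinning. The 12 arterial markers summed to 5275, 7574 and 7188 CPM in the arterial cluster, 1.36-fold (1.31 to 1.42) higher in old than young, led by Mgp at 2426, 4092 and 3675 CPM. Not every marker moved so, with Efnb2 at 0.927 (0.737 to 1.17) and Unc5b at 0.887 (0.681 to 1.16). Their part in the Jag1 and Jag2 values was not tested. The 9 pericyte markers moved the other way there, at 1256, 1096 and 361 CPM.

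Of the 10 genes with at least 20 UMIs over both libraries, those with an old over young interval that left out 1 were below 1 in pericytes and smooth muscle. Jag2 in pericytes lay under that minimum, on 3 and 11 UMIs, with a ratio of 5.1 (1.35 to 28.4). Heyl fell in pericytes from 280 to 233 and 208 CPM, an old over young ratio of 0.741 (0.579 to 0.945), and in the mixed arterial droplets from 93.1 (75.6 to 113) to 71.0 (55.5 to 89.6) and 31.0 (19.2 to 47.3), a ratio of 0.333 (0.197 to 0.537). In the other mixed droplets, which held 49.4, 55.5 and 63.0% of its UMIs in the compared classes, the ratio was 1.04 (0.892 to 1.22). In the mixed arterial droplets pericyte markers summed to 13130, 13044 and 11707 CPM and smooth muscle markers to 3890, 4532 and 3318. The pericyte value turns with the cells counted: among the 60 young and 23 old pericytes without markers of another class the ratio was 1.2. In smooth muscle Notch1 went from 215 (166 to 273) to 185 (142 to 238) and 131 (96.2 to 174) CPM, a ratio of 0.610 (0.410 to 0.900), and Notch3 from 660 to 575 and 473, a ratio of 0.717 (0.582 to 0.884). Thinning brought the Notch1 ratio to 0.948 and that of Notch3 to 0.788. Pericyte markers in the same cluster fell from 9425 and 8930 CPM to 4806 in the old library, and their part in both values was not tested. Hes1 in pericytes was lowest in the adult, at 722 (661 to 788), 564 (503 to 631) and 678 (608 to 755) CPM, and the dissociation response list was at 8384, 6357 and 6370 CPM.

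**Figure D5:**
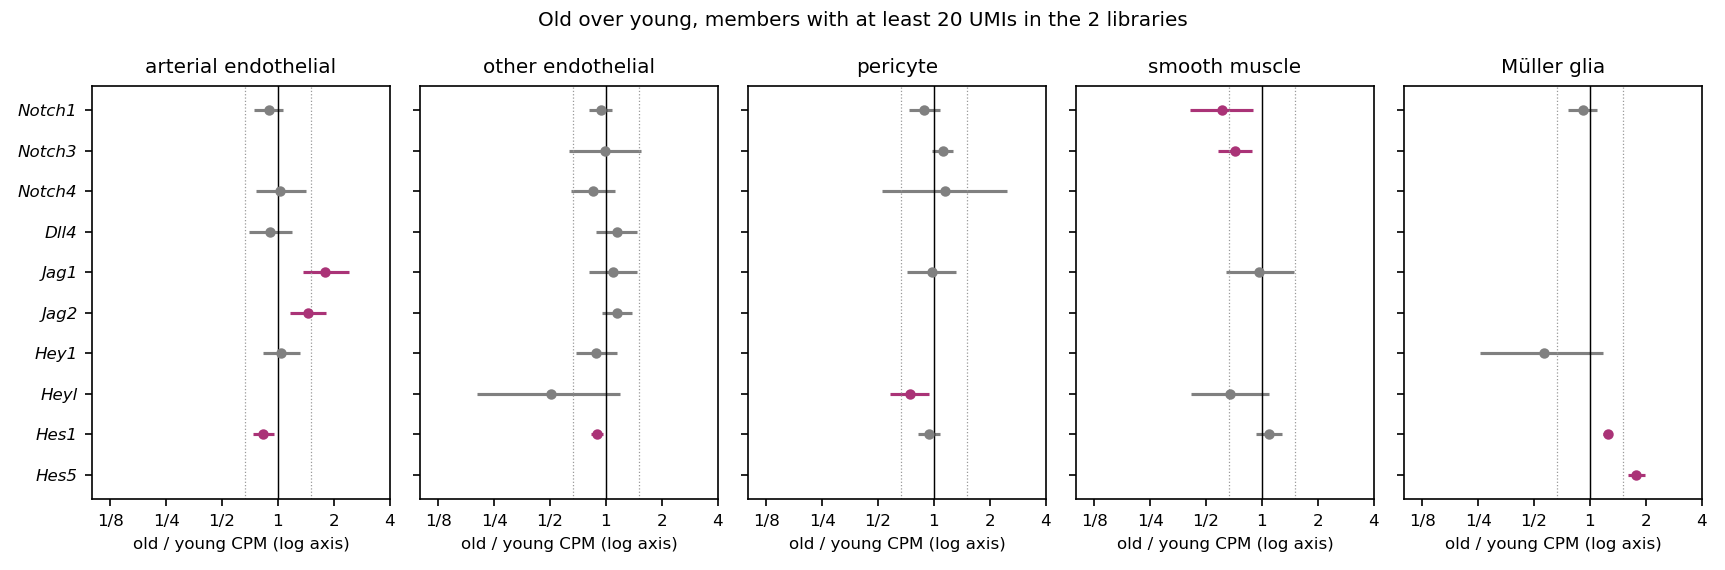
Ratio of CPM in the old over the young library (horizontal log axis, solid line at 1, thin lines at 1.5-fold) in 5 classes for genes with at least 20 UMIs over both libraries, with 95% counting intervals. Coloured points have an interval that leaves out 1: Jag1 and Jag2 up and Hes1 down in arterial cells, Hes1 down in other endothelial cells, Heyl down in pericytes, Notch1 and Notch3 down in smooth muscle, Hes1 and Hes5 up in Müller glia.

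Few of the 10 genes passed 1.5-fold between old and young in any class, and their counts are given beside the share of all genes that did so in the same direction. In endothelial cells as a whole 9 were measured, 1 was higher (Jag1, background 6.98%) and 1 lower (5.71%), Heyl on 21 and 11 UMIs at 0.471 (0.205 to 1.02), an interval that spans 1. The 9 pericyte markers in endothelial cells summed to 2055, 2065 and 1304 CPM, or 5.65, 6.08 and 3.70% of their pericyte level, and their part in the Heyl value was not tested. In arterial cells 7 had at least 20 UMIs over both libraries, 1 was higher (Jag1, background 11.3%) and 0 lower (8.75%). Other endothelial cells gave 9 measured, 0 higher (6.82%) and 1 lower (6.6%), Heyl on 18 and 9 UMIs with an interval that spans 1. Venous cells gave 5 measured, 1 higher (15.3%), Notch4 at 1.55 (0.674 to 3.86), and 0 lower (10.5%). The mixed arterial droplets gave 9 measured, 0 higher (8.99%) and 1 lower (9.91%), Heyl, and the mixed droplets 9 measured, 0 higher (6.16%) and 0 lower (5.4%). With so few genes measured, counts of 0 or 1 are near these backgrounds and say nothing particular of the 10 genes. Pericytes gave 6 measured with 0 higher (13.2%) and 0 lower (8.66%), and smooth muscle 5 measured with 0 higher (15.3%) and 1 lower (9.55%), Notch1. Müller glia gave 4 measured with 1 higher (8.29%), Hes5, and 1 lower (7.31%), Hey1 on 23 and 12 UMIs at 0.564 (0.256 to 1.18). Rods gave 3 measured with 1 higher (11.8%), Jag1 at 1.53 (0.904 to 2.64), and 0 lower (10.1%), cones 1 measured with 0 past the fold either way (10.7 and 9.35%), and bipolar cells 2 measured with 0 higher (6.82%) and 1 lower (8.71%), Jag2 at 0.632 (0.336 to 1.15). The median log2 ratio of the measured genes was 0.05 in arterial cells, -0.06 in pericytes, -0.48 in smooth muscle and 0.10 in Müller glia, beside 0.03, 0.07, 0.08 and 0.02 over all measured genes.

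Between adult and young the measured genes past 1.5-fold numbered at most 2 in either direction in the classes given here. No location is read from counts this small. In Müller glia 2 of 5 were higher (7.54%), Hes5 and Notch4, the latter on 8 and 19 UMIs at 2.03 (0.849 to 5.36). There 1 was lower (7.07%), Hey1 at 0.520 (0.248 to 1.06). Endothelial markers in Müller glia summed to 8.15% of their own level in the young and 7.71% in the adult library. Their part in the Notch4 and Hey1 values was not tested. Arterial cells had 0 of 7 higher (9.71%) and 0 lower (8.28%), and other endothelial cells 0 of 9 higher (5.7%) and 0 lower (4.51%). Pericytes had 0 of 6 higher (10.4%) and 1 lower (7.92%), Notch4 at 0.45 (0.145 to 1.2). Smooth muscle had 0 of 5 higher (13.3%) and 1 lower (9.18%), Heyl at 0.646 (0.388 to 1.06), and bipolar cells 0 of 2 higher (6.95%) and 1 lower (6.07%), Jag2 at 0.66 (0.375 to 1.15). Each of these except Hes5 has an interval that spans 1. Notch3 in arterial cells lay under the minimum, on 4 young and 14 adult UMIs, with a ratio of 3.60 (1.13 to 15.0).

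The machinery around the 10 genes was followed through 49 further genes: other receptors and ligands, enzymes that cut or glycosylate the receptor, the nuclear complex, regulators and other targets. Between old and young, 1 of 34 measured was more than 1.5-fold higher (6.98% of all genes) and 0 lower (5.71%) in endothelial cells. In arterial cells 1 of 30 was higher (11.3%) and 1 lower (8.75%), in pericytes 2 of 31 (13.2%) and 3 (8.66%), in smooth muscle 3 of 20 (15.3%) and 3 (9.55%), and in Müller glia 1 of 36 (8.29%) and 0 (7.31%). These counts do not set the list apart from other genes. The genes that follow are those with an interval that leaves out 1. Numbl, a relative of the Notch antagonist Numb, rose 1.80-fold (1.04 to 3.19) in endothelial cells and 2.46-fold (1.19 to 5.29) in pericytes. The coactivators of the nuclear complex Maml2 and Maml3 fell, Maml2 in arterial cells to 0.457 (0.238 to 0.856) and Maml3 in pericytes to 0.364 (0.169 to 0.719). In smooth muscle Adam17, a protease able to cut Notch, fell to 0.302 (0.0976 to 0.804) on 17 and 6 UMIs, and Itch, a ubiquitin ligase that acts on Notch, to 0.459 (0.228 to 0.889). Each of these sums holds at most 42 UMIs in a library.

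By class, Adam10, which makes the first ligand-driven cut, led the cleavage list in endothelial cells at 214, 221 and 184 CPM and was at 45.9, 53.1 and 47.9 in pericytes. Psenen, a subunit of gamma-secretase, led that list in Müller glia at 168, 167 and 182 CPM. Rbpj was spread widely, at 60.1, 63.3 and 63.1 CPM in endothelial cells, 102, 98.9 and 91.8 in pericytes and 69.0, 71.8 and 62.9 in Müller glia. Mfng, which glycosylates Notch, was at 57.1, 56.0 and 56.5 CPM in endothelial cells, and Lfng led that list in Müller glia at 51.6, 39.0 and 52.5. Hey2, a relative of Hey1 and Heyl, was mural and glial, with 101, 139 and 95.8 CPM in pericytes, 130, 109 and 89.1 in smooth muscle and 99.6, 78.0 and 90.1 in Müller glia. Of the 30 genes measured in both subclasses in every library, 1 was more than 1.5-fold higher and 1 lower in arterial than in other endothelial cells in all 3 libraries, where 3.29 and 2.23% of all genes were, so the counts are near the background. The higher one was Nrarp, a feedback inhibitor of Notch, at 3.76, 3.18 and 5.03-fold, and the lower one Lfng at 0.583, 0.583 and 0.538, both named after their values were seen.

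Over the 33 sums of 11 classes and 3 libraries, the genes whose log2(CPM + 1) ran closest to a member were sought among 13872 genes. The sums share libraries, depth and cell types, so the correlations are descriptions. Notch3 was closest to Casq2 (Pearson r = 0.98), Cspg4 (0.97), itself a pericyte marker, and Rgs4 (0.97), and Heyl to Prrx1 (0.98), Foxs1 (0.97) and Aspn (0.97). Notch1 ran with Fkbp9, Vkorc1 and Itpripl2 (0.97 each). Among endothelial patterns, Dll4 was closest to St8sia6 (0.98), Mall (0.96) and Far2 (0.96), Notch4 to Grasp (0.93), Mpzl1 (0.93) and Hspa12b (0.92), Jag2 to Nos3, the endothelial nitric oxide synthase (0.95), Eogt (0.94) and Timeless (0.94), and Hey1 to Gda (0.89), Cdh13 (0.88) and C1qtnf9 (0.88). Jag1 was closest to Ehd4 (0.90), Fnip2 (0.89) and Dynll1 (0.89). Hes1 was closest to Zfp36l1, Junb and Adgra2 (0.98 each), of which Junb belongs to the dissociation response list, and Hes5 to Spc25 (0.94), Slitrk2 (0.94) and Pax6os1 (0.93). Among the 10 genes themselves the closest pairs were Notch3 with Heyl (0.95), Notch1 with Hes1 (0.95) and Notch4 with Dll4 (0.89).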

How the data were processed

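Values deposited by the authors are raw counts, UMIs per gene and barcode, made per the submitters' processing notes with Cell Ranger 6.1.2 on mm10. The files hold more barcodes than the study's methods give as cells. Cells with 500 to 6000 genes and 1 to 20% mitochondrial UMIs were kept, and Scrublet (scanpy 1.11.5) marked 40 of 5400 (0.741%) as doublets, which were removed. Cells were integrated and clustered in Seurat 5.3.0 (2000 features without Notch pathway genes, 30 components, resolution 0.5), and endothelial cells again at resolution 1. Clusters were named from marker genes: a marker counted when in 20% of cells and at 25% of its highest level, and a name needed 3. These names are rebuilt, and no deposited annotation was used. In the first clustering, clusters that met 50% of the markers of a further class were called mixed. Endothelial subclusters were not renamed by this rule, and 1 of them, with 57, 66 and 46 cells and 7 of 9 pericyte markers, stayed among the other endothelial cells. Counts were summed per class and library (at least 20 cells). Intervals (95%) are exact Poisson for CPM, exact conditional for ratios and Clopper-Pearson for shares (scipy 1.17.1). A gene was measured with at least 20 UMIs over both sums, and past the fold beyond 1.5. With 1 library per group there was no test. The members, gene lists and markers were chosen with earlier results of these data known. Besides the members, wider-list genes were named when past 1.5-fold with an interval leaving out 1 between old and young, or highest of their list in a class, and the 3 genes closest in pattern were named for each member. Positions are from GENCODE M21 (GRCm38), which held 32235 of 32285 identifiers. Alternatives were another cell filter, no doublet removal, thinning to 2000 UMIs, cells without markers of another class, means over cells, resolution 1, median-of-ratios scaling, a fold of 2 and 50 UMIs. The scripts were tested on simulated counts.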

Additional observations from a re-analysis of the deposited data

Results flagged for a closer look

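Among the genes with at least 20 UMIs over both libraries in the classes compared, Hes1 had ratios between ages that went opposite ways in different classes of the same libraries, each with a counting interval that leaves out 1. Between old and young it was 1.25 in Müller glia but 0.837 in arterial and 0.896 in other endothelial cells. Between adult and young it was 1.24 in Müller glia and 1.15 in arterial cells, but 0.919 in other endothelial cells and 0.781 in pericytes. Hes5 had ratios of 1.56 in Müller glia and 0.289 (0.0863 to 0.877) in rods between adult and young, the latter on 10 and 6 UMIs, under that minimum. With 1 library per age the difference between classes was not tested. Thinning each cell to 2000 UMIs moved the old over young value in Müller glia to 1.01 and left that in arterial cells at 0.83. Between old and young the summed 12 dissociation response genes, which include Junb, a gene of like pattern to Hes1, had ratios of 1.004 in Müller glia, 1.04 (1.01 to 1.07) in arterial and 0.907 (0.890 to 0.925) in other endothelial cells, and their part in the Hes1 values was not tested.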

How the results depend on the processing

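No paired analysis was possible because each age is 1 library, so the groups share fewer than 2 replicate numbers, and no replicate could be left out. Main counts are of ratios past 1.5-fold, 1 for each gene in each of 8 classes, so a gene can count more than once. For the 10 genes they were 7 for old over young and 6 for adult over young, with 20 and 34 in the wider list. No share over all genes was set beside these counts or those of the alternatives, so nothing is read from their moves. Thinned cells gave 12 (adult over young) and, for the wider list, 19, and an old over young ratio of Hes1 in Müller glia of 1.01 in place of 1.25. Means over cells gave 1.15 for Hes1 and 1.58 for Hes5 there, and 1000 to 6000 genes with 1 to 10% mitochondrial UMIs gave 1.54 for Hes5, in place of 1.78. In the smaller Müller cluster, an alternative chosen after seeing the data, Hes5 was at 1.01 and Hes1 reversed to 0.694. A fold of 2 gave 7 and 9 in the wider list, and a minimum of 50 UMIs 5 and 8, since both admit fewer genes. Without cells that carry markers of another class, Heyl in pericytes reversed to 1.2, and over the 4 classes left the counts were 8 (old over young, 3 in the main analysis) and 6 (adult over young, 2); Müller glia then have too few cells, so 0 genes were highest there in place of 2, and 1 was highest in neurons in place of 0. Jag1 in arterial cells stayed between 1.55 and 2.33 and Jag2 between 1.25 and 1.80 over all alternatives run. That marker setting was not run in arterial, venous, mixed arterial, smooth muscle, Müller and cone cells, and the stricter filter not in cones, for want of cells. At resolution 1 and without doublet removal endothelial cells were not clustered again, so these give no venous subclass. At resolution 1 a low-UMI cluster with Müller markers (24, 37 and 46 cells) was also left out, and Müller glia numbered 163, 193 and 171. The larger Müller cluster then held 129, 157 and 124 cells, and the smaller one still 34, 36 and 47. Other scaling moved the median of all genes by at most 0.09 on the log2 scale. Depth limits genes under 20 UMIs, and intervals cover counting error only.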

Other observations

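Dner, a Notch ligand-like protein of neurons, was at 34.3, 44.9 and 43.6 CPM in bipolar cells of the young, adult and old library, and Neurl1a, a ubiquitin ligase of the ligand pathway, at 90.6, 85.5 and 81.8. Endothelial cells gave 0 Dner UMIs in each library, which allows up to 0.916, 0.884 and 0.823 CPM at 3 counts, and 1, 2 and 0 of Neurl1a. Dll1, a Delta ligand, was at 26.4, 39.5 and 24.6 CPM in cones and at 3.66, 3.54 and 1.65 in endothelial cells. Hes6, a relative of Hes1 that is known to oppose it, was at 55.6, 70.5 and 61.8 CPM in bipolar cells and at 20.3, 20.5 and 14.3 in cones, beside 14.3, 12.1 and 13.7 in endothelial cells. Among mural cells Dtx3, of the Deltex ubiquitin ligases, led the regulators in pericytes at 241, 211 and 208 CPM.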
